A study of Mus musculus with 8 samples.

Results

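Purified round spermatids that carried a knock-in allele of Miwi beside a null allele (MIWI -/KI, replicates 1 and 2) were compared with round spermatids with null alleles alone (MIWI -/-, replicates 1 and 2). These are 4 of the 8 arrays of the series, chosen by the genotype and replicate number in their titles. Miwi is the common name of Piwil1. All mice were adults of strain C57BL/6 without treatment, and both genotypes lacked a wild-type Miwi allele, so the groups shared 1 null allele and differed in the other. The 4 remaining arrays, 2 of MIWI +/- (the null allele beside a wild-type one) and 2 of MIWI +/KI (the knock-in allele beside a wild-type one), served as the level to which the mutants were related. The labels do not say what the knock-in changes. The series title concerns the catalytic activity of MIWI, and the comparison asks what a knock-in allele leaves of the expression programme when it is the only source of MIWI. Arrays of a genotype are titled biological replicates, but the sources used here do not say whether an array held RNA of 1 animal or of several. The p-values therefore measure how these preparations varied, which may be technical.

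MIWI is a PIWI protein of the Argonaute family that is made from the pachytene stage of meiosis to the round spermatid stage. It is loaded with piRNAs, small RNAs that guide it to complementary transcripts, and its PIWI domain can cut such transcripts. In mice without MIWI, male germ cells stop developing as early round spermatids and never elongate, and late haploid genes such as those of transition proteins and protamines are weakly expressed. piRNAs are also known for restraining retrotransposons such as LINE1.

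The arrays gave 1 normalised intensity for each of 35512 transcript clusters, which read 19938 genes after 1 cluster was taken per gene. Array medians ranged from 66.6 to 71.8. The 2 arrays of MIWI -/KI were the least alike of the 4 replicate pairs, with r = 0.970 across clusters and a median absolute replicate difference of 0.28 on the log2 scale, against 0.18 in MIWI -/-, 0.12 in MIWI +/- and 0.09 in MIWI +/KI. MIWI -/KI replicate 1 correlated more with MIWI -/- replicate 1 (r = 0.988) and replicate 2 (r = 0.987) than with MIWI -/KI replicate 2. On the second principal component, which held 25.8% of the variance, MIWI -/KI replicate 1 (score 18.0), MIWI -/- replicate 2 (40.9) and both MIWI +/KI arrays (17.5 and 18.9) had positive scores. MIWI -/KI replicate 2 (-35.7) and both MIWI +/- arrays (-33.6 and -23.3) had negative ones. MIWI -/- replicate 1, at -2.78, lay near 0 and shared with them only the sign. No label names what this component stands for. Some values below are also given for the crossed pairs of arrays with the same sign, a grouping that for this array rests on that small score: MIWI -/KI replicate 1 minus MIWI -/- replicate 2 and MIWI -/KI replicate 2 minus MIWI -/- replicate 1.

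Piwil1 itself had the smallest p of all clusters. Its intensity was 672 and 696 in MIWI -/KI and 196 and 151 in MIWI -/-, with 389 and 371 in MIWI +/- and 680 and 749 in MIWI +/KI. The null arrays were the lowest of all 8, and the knock-in arrays lay beside those with a knock-in and a wild-type allele. The log2 difference between MIWI -/KI and MIWI -/- was 1.99 (SE 0.17, 3.98-fold), in limma with an adjusted p of 0.0816 over all clusters, above the threshold of 0.05. Without MIWI -/KI replicate 1 the log2 difference was 2.02. Over all alternatives the log2 difference lay between 1.81 and 2.18 and the adjusted p between 0.0152 and 0.858. The sources used here do not say whether the probes of this cluster lie in the deleted part of the gene, so the signal in MIWI -/- does not check its label. The 3 measured genes on either side of Piwil1 showed no difference of that size: Tmem132d, Fzd10os, Fzd10, Rimbp2, Stx2 and Ran had log2 differences between -0.10 and 0.17, each with an adjusted p of 0.998. The other measured PIWI genes differed little. Piwil2, the gene of MILI, the PIWI protein of earlier germ cells, was at 1013 and 1142 in MIWI -/KI and at 1099 and 1004 in MIWI -/-, a log2 difference of 0.03 (SE 0.14) with overlapping arrays. Piwil4, the gene of the fetal PIWI protein MIWI2, was at 45.1 and 37.4 against 33.4 and 43.7.

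In limma, 0 of 19938 genes (0%) and 0 of 35512 clusters (0%) passed an adjusted p under 0.05. At an unadjusted p under 0.05 there were 1599 clusters (4.5%) and 908 genes (4.55% of those tested), 481 with the higher level in MIWI -/KI (2.41%) and 427 with the lower (2.14%). How many genes reached either threshold depended on single arrays, and a fit without 1 array leaves a genotype unreplicated. The median absolute log2 difference between the 2 genotypes, 0.12 over all genes, was smaller than the median absolute difference between the MIWI -/KI replicates. The 2 arrays of one genotype both lay above the 2 of the other in 4542 genes (22.8%), in 2364 with MIWI -/KI higher (11.9%) and in 2178 with MIWI -/KI lower (10.9%). Means lay at least 2-fold apart in 20 genes (0.1%), 19 with the higher mean in MIWI -/KI and 1 with the lower, n-R5s136, a 5S ribosomal RNA gene whose arrays overlapped. The genes below are therefore given with their values and not as changes.

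Among the 12 genes with the smallest p on the higher side, 6, with Piwil1, had both MIWI -/- arrays below all 6 others. In the other 6 both MIWI -/KI arrays lay above all 6 others. The shares of all genes with these orders were not counted. Rpa1, the large subunit of the single-strand DNA binding protein RPA, was among those with the null arrays lowest. Its intensity was 600 and 792 in MIWI -/KI, 201 and 165 in MIWI -/-, 530 and 554 in MIWI +/- and 525 and 638 in MIWI +/KI. The 2 null arrays were low and the other 6 lay together. The log2 difference was 1.92 (SE 0.19, adjusted p = 0.0818 in limma). It lay between 1.72 and 2.12 when 1 array was left out. Paqr8, a membrane progestin receptor, was at 357 and 342 in MIWI -/KI against 205 and 201 in MIWI -/-, at 356 and 364 in MIWI +/KI and at 233 and 227 in MIWI +/- (log2 difference 0.79, SE 0.14, adjusted p = 0.871). The 4 arrays with a knock-in allele lay above the 4 without one, as they did for Piwil1 but not for Rpa1.

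Exoc8, a subunit of the exocyst that tethers secretory vesicles, had both MIWI -/KI arrays above all others. Its intensity was 507 and 561 in MIWI -/KI, 228 and 200 in MIWI -/-, 143 and 117 in MIWI +/- and 254 and 257 in MIWI +/KI, a log2 difference of 1.32 (SE 0.17, adjusted p = 0.235). Both arrays of MIWI +/KI also lay above both of MIWI +/-. Tfrc, the transferrin receptor through which cells take up iron, was at 405 and 603 in MIWI -/KI and at 215 and 161 in MIWI -/-. It was at 131 and 106 in MIWI +/- and at 82.9 and 84.4 in MIWI +/KI. The log2 difference of Tfrc was 1.41 (SE 0.24, adjusted p = 0.871), and its level lay above the arrays with a wild-type allele in both mutants. Gadd45b, a stress-inducible growth arrest gene, was also above the arrays with a wild-type allele in both mutants. It was at 434 and 406 in MIWI -/KI, 220 and 242 in MIWI -/-, 81.5 and 84.0 in MIWI +/- and 107 and 103 in MIWI +/KI (log2 difference 0.86, SE 0.15, adjusted p = 0.871). Olfr213, an olfactory receptor gene, had a log2 difference of 0.85 (SE 0.15, adjusted p = 0.871), with 147 and 154 in MIWI -/KI against 78.1 and 88.5.

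Naaladl2, a member of the glutamate carboxypeptidase family, was at 247 and 432 in MIWI -/KI and at 82.5 and 98.7 in MIWI -/- (log2 difference 1.86, SE 0.27, adjusted p = 0.536). Its 4 clusters did not all show this. A second cluster gave 1.81, and the remaining ones gave 0.11 and -0.13. The intensities of the latter, 30.5 to 38.3 and 11.5 to 15.2 over all arrays, lay below the array medians of 66.6 to 71.8. Mir297b, a microRNA gene of a repeated family, was at 180 and 148 against 54.6 and 45.0, a log2 difference of 1.72 (SE 0.28, adjusted p = 0.775), and cross-hybridisation among members of the family was not examined. Among the remaining genes on the higher side, Acte1, an actin of the testis, Plbd1, a phospholipase B domain protein, and Ppp2r2b, a regulatory subunit of protein phosphatase 2A, had MIWI -/KI levels between those of MIWI -/- and MIWI +/-. Plbd1 was at 292 and 329.5 in MIWI -/KI, 161 and 183 in MIWI -/-, 540 and 556 in MIWI +/- and 356 and 326 in MIWI +/KI (log2 difference 0.85, SE 0.15, adjusted p = 0.879).

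Symbols of uncharacterised loci were passed over by the rule for named genes, and 2 of them had a p as small as the 12, 3110040M04Rik and Gm5893. The first, named here after its values were seen, was read on 2 clusters, which were at 313 and 353 and at 299 and 356 in MIWI -/KI. In MIWI -/- the same clusters were at 118 and 114 and at 99.4 and 102. The log2 differences were 1.51 (SE 0.15) and 1.70 (SE 0.16), each with an adjusted p of 0.0818. In both clusters the MIWI -/KI arrays lay above all others, and the MIWI +/KI arrays, between 150 and 172, above those of MIWI +/- and MIWI -/-.

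**Figure D1:**
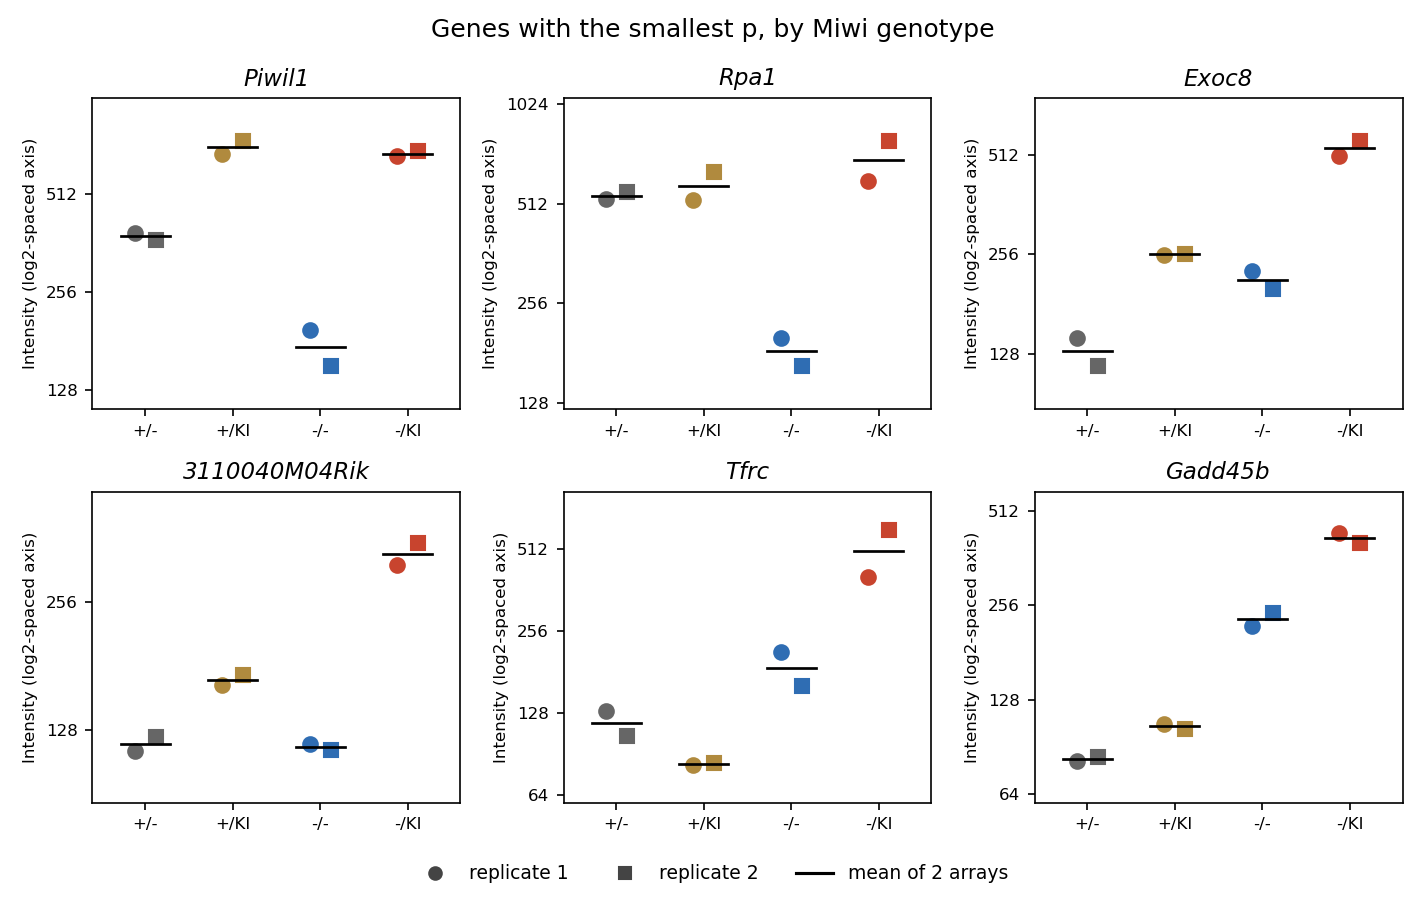
Intensity of 6 genes with small p in MIWI -/KI against MIWI -/-, on a log2-spaced axis, with 1 point per array (circle replicate 1, square replicate 2) and a line at the mean of 2 arrays for each genotype. Piwil1 and Rpa1 are lowest in the 2 MIWI -/- arrays, and Piwil1 is also lower in MIWI +/- than in the arrays with a knock-in allele. Exoc8, 3110040M04Rik (chosen outside the rule for named genes), Tfrc and Gadd45b are highest in the 2 MIWI -/KI arrays.

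The 12 genes with the smallest p on the lower side, all with an adjusted p of 0.998, had a shared order of arrays. In 12 of 12, MIWI -/- replicate 2 lay above replicate 1 and both MIWI +/KI arrays lay above both MIWI +/- arrays. The genes were chosen on their MIWI -/KI and MIWI -/- values, and the share of all genes with this order was not counted. MIWI -/- replicate 2 and the MIWI +/KI arrays are on one side of the second principal component, as is MIWI -/KI replicate 1, and the part of that component in these differences was not tested. Atxn2l, an RNA-binding protein of stress granules, was at 1860 and 1919 in MIWI -/KI and at 2582 and 3326 in MIWI -/-, with 1779 and 1852 in MIWI +/- and 3289 and 3141 in MIWI +/KI. The MIWI -/KI level lay beside that of MIWI +/-, and the log2 difference was -0.63 (SE 0.13). Cytl1, a cytokine-like secreted protein, was at 265 and 214 in MIWI -/KI against 405 and 452 in MIWI -/-, a log2 difference of -0.85 (SE 0.19). Tesk1, a kinase named for its expression in testis germ cells, was at 1500 and 1343 against 1896 and 2634, with 1849 and 1826 in MIWI +/- (log2 difference -0.65, SE 0.16). Both MIWI -/KI arrays of Tesk1 lay below all others. Espl1, which encodes separase, the protease that releases sister chromatids, was at 382 and 374 against 543 and 665 (log2 difference -0.67, SE 0.16). The other members on this side were Arhgap39, Ube2o (a ubiquitin-conjugating enzyme), Cacna1h (a T-type calcium channel), Pcnx3, Ints1 (a subunit of the Integrator complex), Hspb7 (a small heat shock protein), Zer1 and Cd74 (the invariant chain of antigen presentation), with log2 differences between -0.80 and -0.63.

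The genes that set mutants apart from arrays with a wild-type allele give a second view of the 2 genotypes. In limma, 299 genes (1.5% of those tested) were at least 2-fold lower, and 150 (0.752%) at least 2-fold higher, in the mean of MIWI -/KI and MIWI -/- than in the mean of MIWI +/KI and MIWI +/- at an adjusted p under 0.05. In the 299 lower genes the MIWI -/KI arrays lay slightly nearer to the arrays with a wild-type allele than the MIWI -/- arrays did. Relative to the mean of the 4 arrays with a wild-type allele, the median log2 level of these genes was -1.39 and -1.53 in MIWI -/KI and -1.68 and -1.58 in MIWI -/-. It was 0.34 and 0.31 in MIWI +/- and -0.27 and -0.38 in MIWI +/KI. Both MIWI -/KI arrays lay above both MIWI -/- arrays, by far less than the distance of either to the arrays with a wild-type allele. As a share of the MIWI +/- level, the median was 25.9% in MIWI -/-, 30.0% in MIWI -/KI and 62.9% in MIWI +/KI.

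The log2 difference between MIWI -/KI and MIWI -/- had a median of 0.11 over these 299 genes (quartiles -0.03 and 0.38), against -0.01 over all genes. It was above 0 in 210 of them (70.2%, against 48.1% of all genes) and below 0 in 89. At an unadjusted p under 0.05, 59 had the higher level in MIWI -/KI (19.7%, against 2.41% of all genes) and 0 the lower (0%, against 2.14%). The arrays did not overlap in 108 with MIWI -/KI higher (36.1%, against 11.9%) and in 8 with MIWI -/KI lower (2.68%, against 10.9%). Both crossed pairs had a positive median, 0.17 and 0.14, against 0.03 and -0.04 over all genes. Both were positive in 130 genes and negative in 37, and the same was not counted over all genes. The difference was larger in genes that were lower without a wild-type allele by more: the median was 0.09 over 224 genes lower by 1 to 2 on the log2 scale, 0.19 over 55 lower by 2 to 3, and 0.54 over 20 lower by 3 or more, 19 of which had the higher level in MIWI -/KI. Members share arrays and are not replicates, so these counts carry no test of their own.

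The size of the median depended on single arrays. It was 0.038 without MIWI -/KI replicate 1. It was 0.19 without MIWI -/KI replicate 2 and 0.18 without MIWI -/- replicate 2. The contrast that chose the genes has no covariance with the difference between MIWI -/KI and MIWI -/- where arrays vary alike. Here MIWI -/KI arrays varied more, which by arithmetic lowers the difference in the lower genes and raises it in the higher ones, by an amount that was not tested. In these samples of purified cells, fewer cells of a stage and less RNA per cell cannot be told apart.

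**Figure D2:**
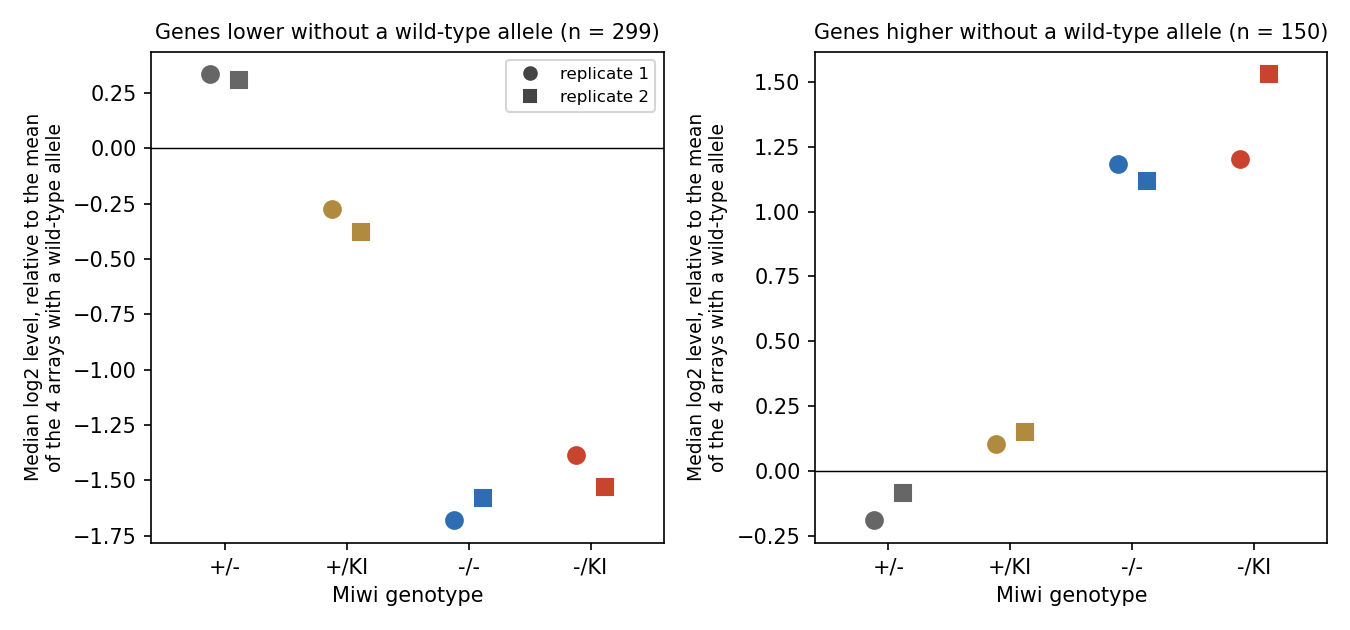
Median log2 level of the 299 genes lower (left) and the 150 genes higher (right) without a wild-type allele in each array, relative to the mean of the 4 arrays with a wild-type allele, with 1 point per array. Both MIWI -/KI arrays lie above both MIWI -/- arrays in either panel, and on the right MIWI -/KI replicate 2, at 1.53, stands above the 3 other mutant arrays.

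**Figure D3:**
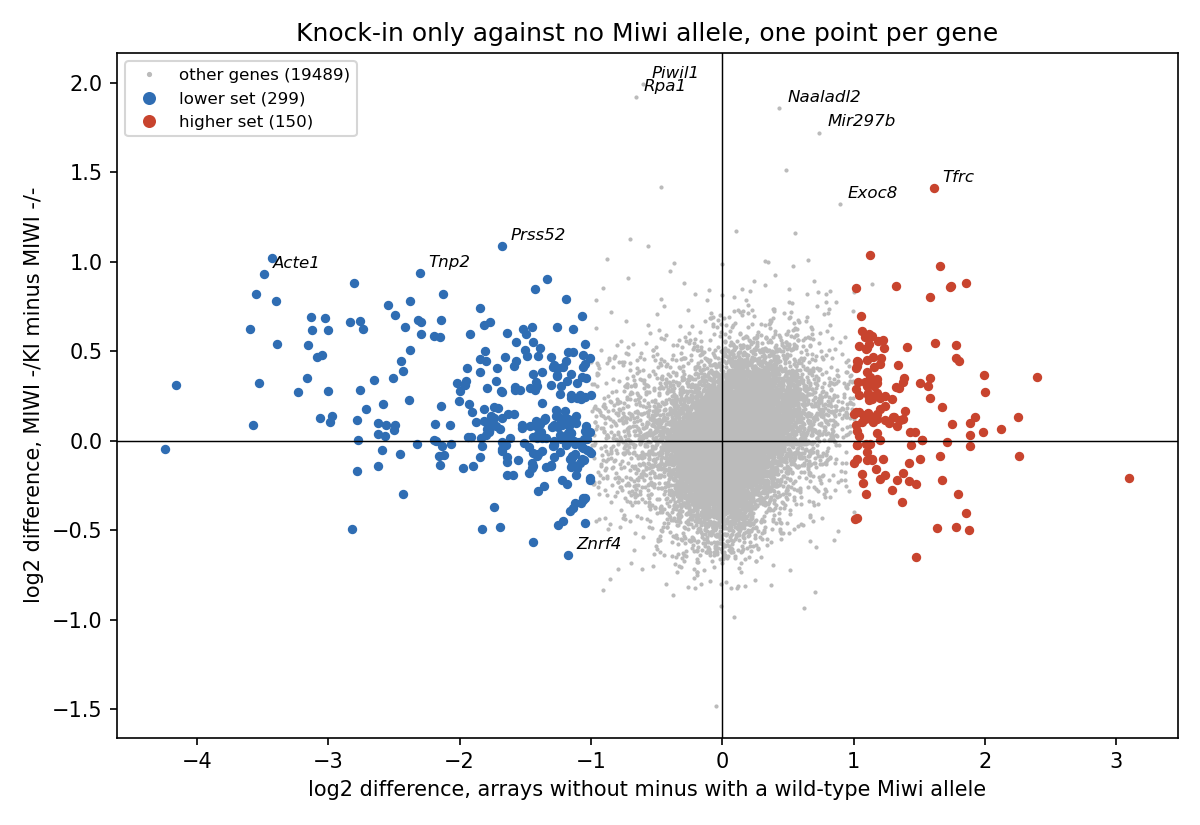
Log2 difference between MIWI -/KI and MIWI -/- (vertical) against the log2 difference between arrays without and with a wild-type Miwi allele (horizontal), with 1 point per gene for 19938 genes. Points of the 299 lower genes (blue) drift above 0 towards the left, while the most separated genes, Piwil1 and Rpa1, stand near the centre of the horizontal axis.

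Genes that package the spermatid nucleus stood among the lower genes with the larger differences. Tnp2, the gene of transition protein 2, which replaces histones before protamines do, was at 1558 and 1074 in MIWI -/KI, 788 and 578 in MIWI -/-, 5928 and 5392 in MIWI +/- and 3834 and 3702 in MIWI +/KI. The 4 genotypes did not overlap, and the knock-in arrays lay closer to the null arrays than to the others. The log2 difference from MIWI -/- was 0.94 (SE 0.20, adjusted p = 0.998), which took the mean from 12.1% of the MIWI +/- level in MIWI -/- to 23.3% in MIWI -/KI. Tnp1, the gene of transition protein 1, was at 574 and 511 in MIWI -/KI against 451 and 244 in MIWI -/-, with 3820 and 3333 in MIWI +/-. Its log2 difference was 0.70 (SE 0.26, adjusted p = 0.998), and the 2 null arrays stood further apart than the knock-in arrays.

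The protamines, which compact the DNA of mature sperm, had smaller differences. Prm2 was at 1837 and 1233 in MIWI -/KI and at 1011 and 927 in MIWI -/-, against 7285 and 6648 in MIWI +/- (log2 difference 0.64, SE 0.18, adjusted p = 0.998). Prm1 was at 963 and 619 against 628 and 372, so that its arrays overlapped (log2 difference 0.68, SE 0.31, adjusted p = 0.998). Prm3 was at 383 and 317 against 354 and 354, a log2 difference of -0.02. Of the 22 measured members of a list of chromatin condensation genes, 16 had the higher level in MIWI -/KI (72.7%, against 48.1% of all genes and 70.2% of the 299 lower genes) and 6 the lower. The 5 with an unadjusted p under 0.05, all higher (22.7%, against 2.41% of all genes and 19.7% of the 299), were Tnp2, Tnp1, Prm2, H2al2a (a histone variant of late spermatids, 0.55) and Camk4 (a calcium-dependent kinase, 0.43), and the median of the list was 0.12. Of the list, 9 members are among the 299, 4 of these 5 included. The share over all 22 members was near that of the 299 as a whole, and the share among the 9, 4 of 9, was larger. Among the 299 this share rose with the size of the loss. It was 32 of 224 genes lower by 1 to 2 on the log2 scale, 15 of 55 lower by 2 to 3 and 12 of 20 lower by 3 or more. The list was not matched for that size.

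The other lower genes with the most positive differences by the rule for named genes were Prss52, Acte1, Cst13, Cstl1 and Zc2hc1b, with the uncharacterised locus Gm5893 (1.02) passed over. Prss52, a serine protease of the testis, was at 452 and 600 in MIWI -/KI, 241 and 248 in MIWI -/-, 1461 and 1927 in MIWI +/- and 853 and 709 in MIWI +/KI (log2 difference 1.09, SE 0.20, adjusted p = 0.879). Its level was 14.5% of that in MIWI +/- in the null and 31.0% with the knock-in. Acte1 was at 125 and 153 in MIWI -/KI, 72.6 and 72.5 in MIWI -/-, 1592 and 1796 in MIWI +/- and 783 and 705 in MIWI +/KI (log2 difference 0.93, SE 0.16, adjusted p = 0.871). These are 8.20% of the MIWI +/- level with the knock-in and 4.28% in the null, both far below a wild-type allele. Cstl1 and Cst13, members of the cystatin family of protease inhibitors, had log2 differences of 0.88 (SE 0.19) and 0.90 (SE 0.22). Cstl1 was at 129 and 169 in MIWI -/KI, 85.7 and 74.5 in MIWI -/- and 1282 and 1289 in MIWI +/-. Ppp2r2b was at 146 and 145 against 87.0 and 82.8, with 825 and 806 in MIWI +/- and 429 and 389 in MIWI +/KI, a log2 difference of 0.78 (SE 0.14, adjusted p = 0.879).

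The lower genes with the most negative differences were Znrf4 (-0.64), Mex3d (-0.57), Rnf44 (-0.49), Phospho1 (-0.49), Tmem189 (-0.48) and Tle3 (-0.47), each with an unadjusted p above 0.05 in limma. Znrf4 and Rnf44 encode RING finger proteins, Mex3d an RNA-binding protein and Tle3 a transcriptional corepressor. Mex3d was at 480 and 341 in MIWI -/KI and at 467 and 768 in MIWI -/-, with 1310 and 1321 in MIWI +/-. The arrays of the 2 genotypes overlapped, and MIWI -/- replicate 2 stood above the other mutant arrays.

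**Figure D4:**
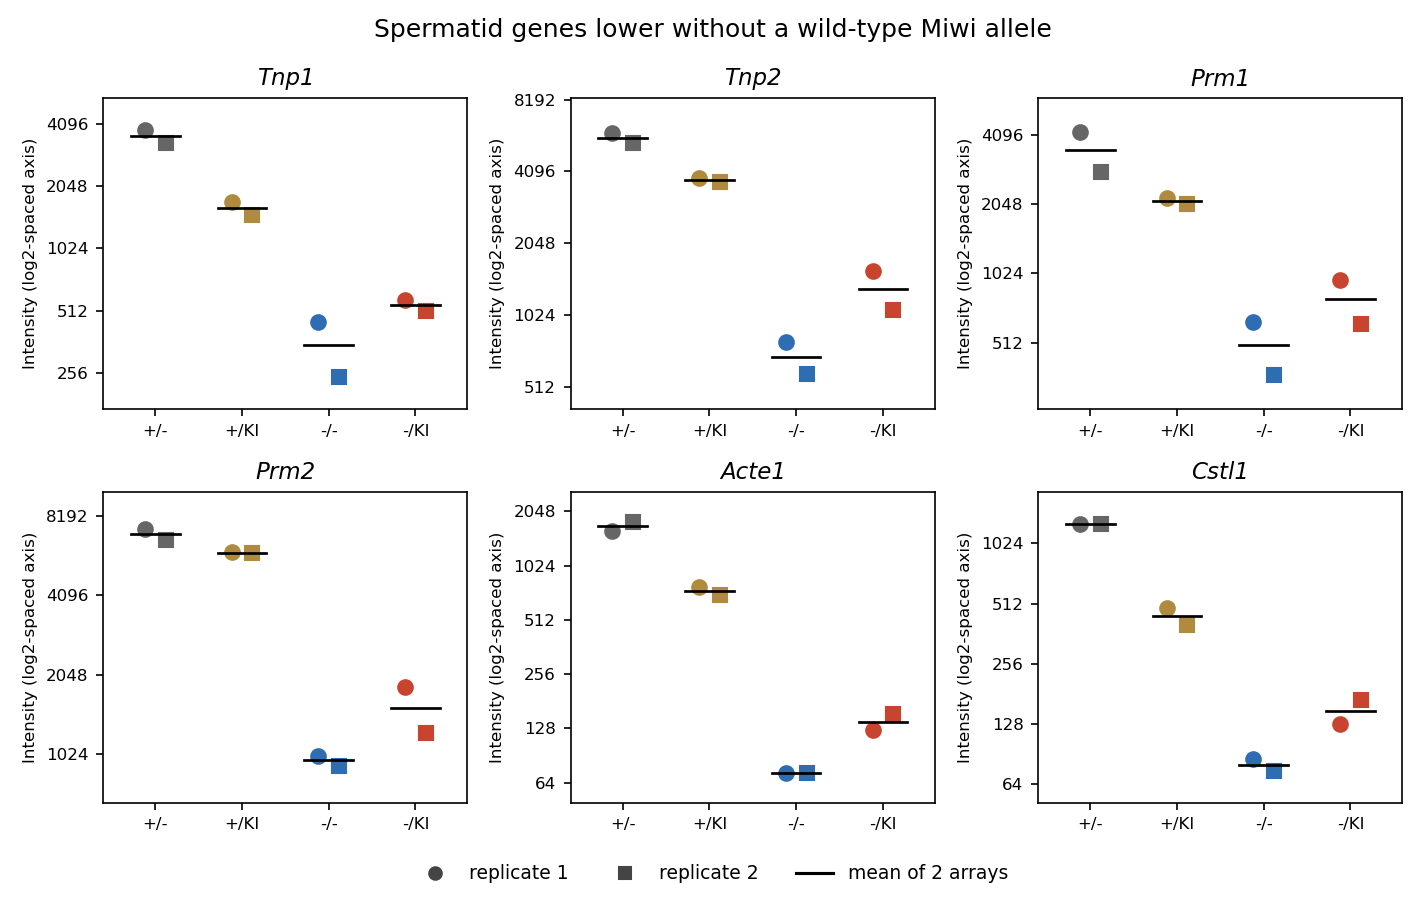
Intensity of 6 late spermatid genes on a log2-spaced axis, with 1 point per array (circle replicate 1, square replicate 2) and a line at the mean of 2 arrays. In each gene the mean of MIWI -/KI lies above that of MIWI -/- and below those of MIWI +/KI and MIWI +/-, and the arrays of MIWI -/KI and MIWI -/- overlap in Prm1 alone.

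The 150 genes that were higher without a wild-type allele were also slightly higher with the knock-in allele than without. This placed MIWI -/KI further from the arrays with a wild-type allele. The median log2 difference was 0.16 (quartiles -0.02 and 0.36), with 110 genes above 0 (73.3%, against 48.1% of all genes) and 40 below. At an unadjusted p under 0.05, 21 had the higher level in MIWI -/KI (14%, against 2.41% of all genes) and 4 the lower (2.67%, against 2.14%). The arrays did not overlap in 45 with MIWI -/KI higher (30%, against 11.9%) and in 15 with MIWI -/KI lower (10%, against 10.9%). The medians of the crossed pairs were 0.08 and 0.29, against 0.03 and -0.04 over all genes. Per array the median level was 1.20 and 1.53 in MIWI -/KI and 1.18 and 1.12 in MIWI -/-, so the distance came mainly from MIWI -/KI replicate 2. Without that array the median difference was 0.064, and without MIWI -/KI replicate 1 it was 0.45 over 203 genes. As a share of the MIWI +/- level the median was 244% in MIWI -/-, 283% in MIWI -/KI and 118% in MIWI +/KI.

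Tfrc and Gadd45b, described above, were among these genes. Exoc6, another exocyst subunit, was at 257 and 484 in MIWI -/KI against 185 and 173 in MIWI -/-, with 85.3 and 91.6 in MIWI +/- (log2 difference 0.98, SE 0.27, adjusted p = 0.998). Its MIWI -/KI arrays stood well apart from each other. Klk1b24, a tissue kallikrein, was at 88.1 and 122 against 49.3 and 51.5, a log2 difference of 1.04 (SE 0.21, adjusted p = 0.998). Zfp729b, a zinc finger gene, and Olfr212, an olfactory receptor gene, had log2 differences of 0.88 and 0.86. At the other end the log2 differences were -0.50 in Lrrc61, -0.49 in Prelid1 and -0.40 in Man2a2, each with an unadjusted p under 0.05. They were -0.48 in Slc41a1, -0.44 in Wdr34 and -0.43 in Esrrb, each with an unadjusted p above 0.05, and the arrays of Slc41a1 and Wdr34 overlapped. The most negative value was that of an uncharacterised locus passed over by the rule, 1700006A11Rik, at -0.65 without overlap. Lrrc61, a leucine-rich repeat protein, was at 1111 and 879 in MIWI -/KI and at 1304 and 1487 in MIWI -/-, against 188 and 163 in MIWI +/- and 592 and 575 in MIWI +/KI. Its knock-in arrays lay below both null arrays and above all 4 arrays with a wild-type allele.

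Genes of the piRNA pathway were read next, since MIWI works within it. Of 29 measured genes for piRNA biogenesis and germ granules, 0 passed the adjusted threshold. In MIWI -/KI 1 was higher (3.45%, against 2.41% of all genes) and 1 lower (3.45%, against 2.14%) at an unadjusted p under 0.05, and the median log2 difference was 0.12. Kif17, a kinesin of the chromatoid body, was at 933 and 735 in MIWI -/KI and at 988 and 1460 in MIWI -/-, a log2 difference of -0.54 (SE 0.20, adjusted p = 0.998) without overlap. Exd1, a partner of TDRD12 in piRNA biogenesis, was at 248 and 263 against 207 and 187 (log2 difference 0.38, SE 0.15, adjusted p = 0.998). Tdrd12 itself and Gtsf1, a PIWI cofactor, had 0.44 and 0.30 with an unadjusted p above 0.05. The Tudor gene Tdrd1, a scaffold of germ granules, was at 1699 and 2332 in MIWI -/KI and at 2067 and 1795 in MIWI -/-, with 332 and 326 in MIWI +/-, and its mutant arrays overlapped (log2 difference 0.05, SE 0.18).

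Of 24 measured genes for retrotransposon silencing and restriction, 0 were higher and 1 was lower at an unadjusted p under 0.05 (4.17%, against 2.14% of all genes), and the median was 0.00. The lower one was Trim28, a corepressor that recruits histone methylation to retroelements, at 1438 and 1256 in MIWI -/KI against 1630 and 2204 (log2 difference -0.50, SE 0.17, adjusted p = 0.998). Its level was 1163 and 1046 in MIWI +/- and 1746 and 1681 in MIWI +/KI, so that MIWI -/- replicate 2 was the highest array. Morc1, which is needed for transposon repression in the male germline, was at 333 and 395 in MIWI -/KI and 326 and 275 in MIWI -/-, and at 80.2 and 92.5 in MIWI +/-. Of 12 genes derived from retroelements 0 were higher and 2 lower at that threshold (16.7%, against 2.14% of all genes): Rtl6 at -0.53 and Peg10 at -0.43. LINE1 and other repeats were not analysed here, since clusters were read through gene symbols.

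Regulators of haploid transcription had a median of 0.00 over 21 measured genes. At an unadjusted p under 0.05, 1 was higher (4.76%, against 2.41% of all genes) and 3 were lower in MIWI -/KI (14.3%, against 2.14%). Fhl5, the testis coactivator of CREM, was at 673 and 762 in MIWI -/KI against 563 and 475 in MIWI -/-, with 1352 and 1364 in MIWI +/- (log2 difference 0.47, SE 0.15, adjusted p = 0.998). Crem itself, a master activator of haploid genes, was at 875 and 1103 against 835 and 881, a log2 difference of 0.20 (SE 0.15) with overlapping arrays. Rfx2, a regulator of spermiogenesis and ciliary genes, was at 743 and 552 against 877 and 1318 (-0.75, SE 0.22, adjusted p = 0.998). Rfx1 and the mRNA-binding protein Ybx2 had -0.82 and -0.40.

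The following counts are at an unadjusted p under 0.05, where 2.41% of all genes were higher and 2.14% lower. In the list of sperm tail genes, 0 of 36 were higher and 1 was lower, Cfap65 at -0.39, and the median was 0.03. The acrosome and egg binding list had 1 higher and 2 lower of 35, Adam1a at 0.38, Acr (acrosin) at -0.37 and Spink2 at -0.29. Testis kinases and phosphatases had 1 higher (3.7%), Camk4, and 4 lower (14.8%) of 27, the lowest being Tssk5 at -0.72. Haploid energy metabolism had 0 higher and 0 lower of 29, with a median of -0.07. Kallikreins and cystatins had 3 higher (18.8%) and 0 lower of 16: Klk1b24, Cst13 and Cstl1, of which Cst13 and Cstl1 are among the 299 lower genes. The medians of these 5 lists lay between -0.07 and 0.05, against 0.12 for the chromatin list and -0.01 for all genes. A median of that size was not particular to the chromatin list. It was 0.12 for piRNA biogenesis and germ granule genes (79.3% higher in MIWI -/KI) and 0.13 for spermatocyte markers (72.7%). The proteasome (84.4%) and the microRNA and siRNA machinery (72.2%) each had 0.14.

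Stress and housekeeping lists were counted in the same way. Among p53 targets and cell death genes 3 of 29 were higher (10.3%, against 2.41% of all genes), Gadd45b, Pmaip1 (0.48) and Sesn1 (0.40), and 2 were lower (6.9%, against 2.14%), Zmat3 (-0.51) and Bcl2l1 (-0.49), with a median of 0.02. Interferon and nucleic acid sensing genes had 1 higher of 31 and 0 lower. That gene, Eif2ak2, a kinase activated by double-stranded RNA, was at 210 and 459 in MIWI -/KI against 182 and 179 (log2 difference 0.78, SE 0.33), and MIWI -/KI replicate 2 stood above the 3 other mutant arrays. The endoplasmic reticulum stress list had 1 higher of 29, Asns (asparagine synthetase) at 0.46. The mRNA storage, translation and decay list had 0 higher and 2 lower of 42, the microRNA and siRNA machinery 0 and 0 of 18, and the proteasome 1 and 0 of 32 with a median of 0.14. Respiratory chain genes (0 and 0 of 28) and ribosomal proteins (0 and 1 of 24) had crossed pairs of opposite sign, with medians of 0.44 and -0.34 and of 0.37 and -0.32.

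**Figure D5:**
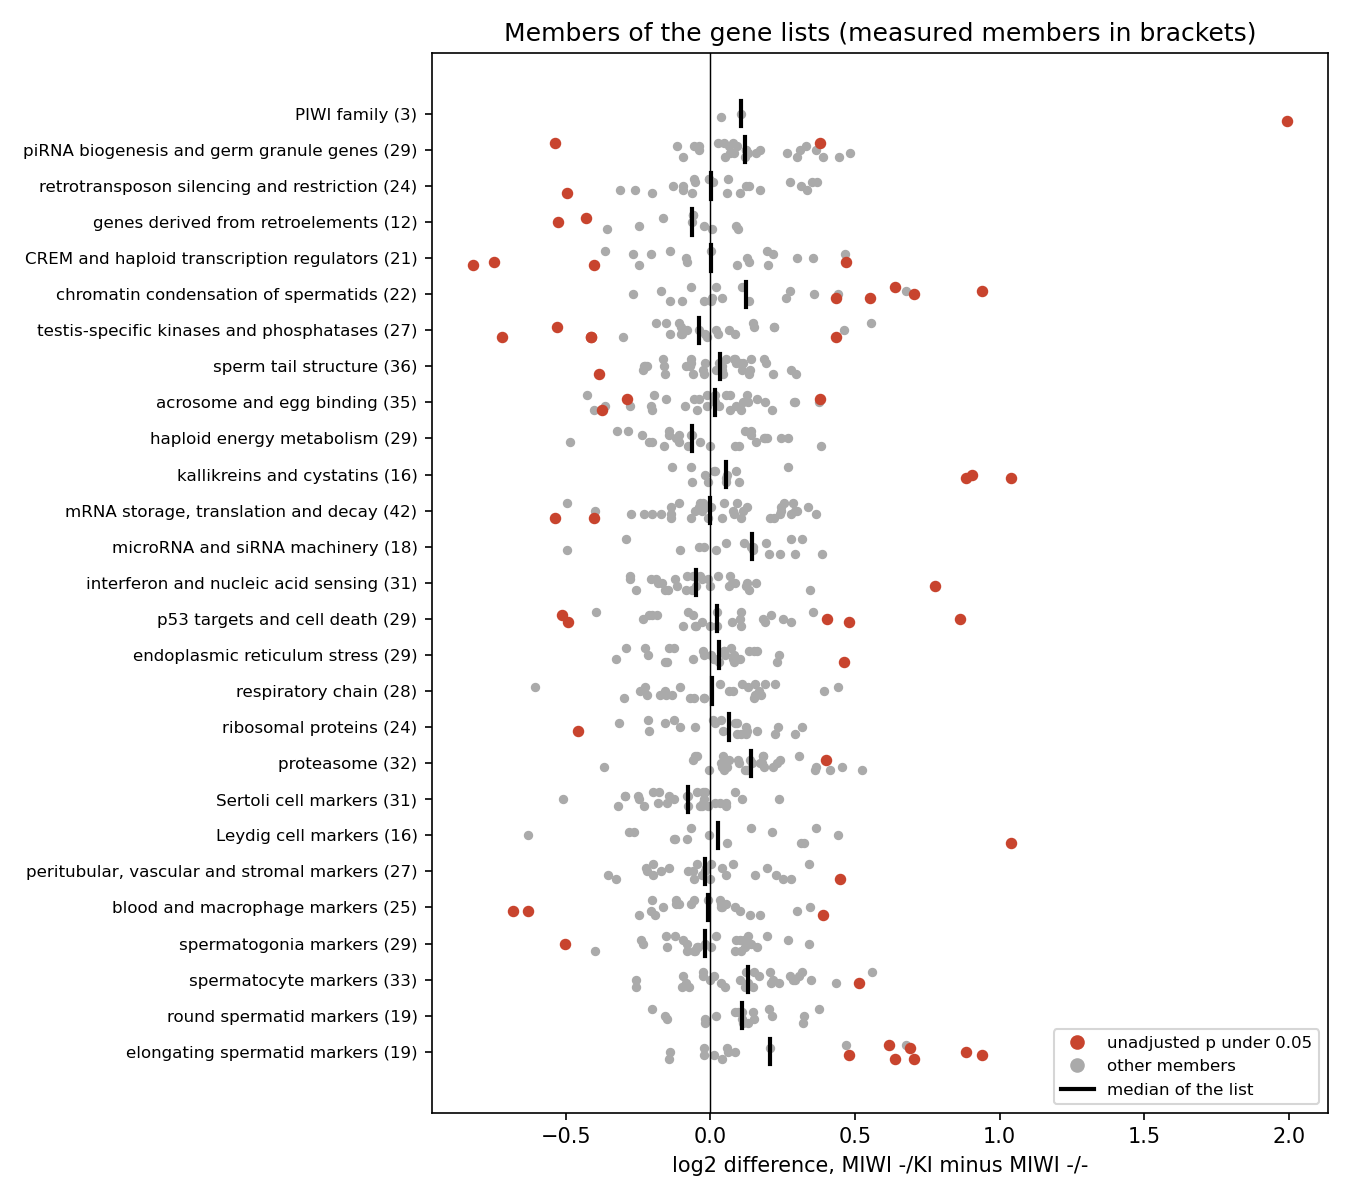
Log2 difference between MIWI -/KI and MIWI -/- for each measured member of 27 gene lists, with 1 point per gene, red where the unadjusted p was under 0.05, and a bar at the median of the list. The elongating spermatid markers have the highest median at 0.21, and Piwil1 stands alone at 1.99.

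Cell type markers showed how far the preparations were alike. Round spermatid markers summed to intensities of 26289 and 23944 in MIWI -/KI and 24610 and 22643 in MIWI -/-, with 21617 to 24596 in the other arrays. The labelled cell type was thus present in both, with Acrv1, an acrosome gene of round spermatids, at 3957 and 3692 in MIWI -/KI and 3374 and 3611 in MIWI -/-. Of 19 measured markers of this stage, 0 had an unadjusted p under 0.05, and the median was 0.11. Elongating spermatid markers summed to 18526 and 16867 in MIWI -/KI and 15451 and 15806 in MIWI -/-, against 53192 and 57244 in MIWI +/- and 37637 and 39318 in MIWI +/KI. Of these 19 markers 7 were higher (36.8%, against 2.41% of all genes) and 0 lower (0%, against 2.14%) in MIWI -/KI at an unadjusted p under 0.05: Ubqlnl, Cstl1, Tnp2, Prm2, Tnp1, Car2 and Tex37. All 7 are among the 299 lower genes, as are 15 of the 19. Of the 299, 19.7% were higher at that p, a share that rose with the size of the loss. The markers were not matched for that size. Tnp1, Tnp2 and Prm2 also stand in the chromatin list, so the lists are not separate observations. Ubqlnl, a ubiquilin-like gene, was at 217 and 210 against 129 and 136, with 1982 and 2009 in MIWI +/- (log2 difference 0.69, SE 0.14, adjusted p = 0.998). The part of a difference in the share of later spermatids in these values was not tested.

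Spermatocyte markers summed to 19315 and 23276 in MIWI -/KI and 21655 and 19343 in MIWI -/-. At an unadjusted p under 0.05, 1 of 33 was higher (3.03%, against 2.41% of all genes), Mlh3 at 0.51. Spermatogonia markers summed to 3454 and 3280 against 3444 and 3477, with 0 higher and 1 lower of 29 (3.45%, against 2.14% of all genes). Among somatic cells of the testis, Sertoli cell markers summed to 3689 and 2917 against 3779 and 3155. Of 31, 0 had an unadjusted p under 0.05, but 24 had a log2 difference below 0 and 7 above 0 (22.6%, against 48.1% of all genes). The medians of their crossed pairs had opposite signs, 0.14 and -0.38. Leydig cell markers summed to 2095 and 2081 against 2379 and 2089, with 1 of 16 higher (6.25%, against 2.41%), the kallikrein Klk1b24. Peritubular, vascular and stromal markers summed to 3512 and 3423 against 3078 and 3778, with 1 of 27 higher (3.7%), Acta2 (smooth muscle actin) at 0.45. Blood and macrophage markers summed to 2666 and 2421 against 2562 and 2566, with 1 higher (4%) and 2 lower (8%, against 2.14%) of 25. The lower ones were H2-Ab1 at 121 and 102 against 182 and 175 and Cd74 at 50.2 and 46.5 against 66.7 and 83.9, both genes of antigen presentation. No marker can be listed at 0, since each normalised intensity is positive.

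The knock-in allele was present beside a wild-type allele as well, so its effect could be set against that beside a null allele. The difference of the 2 effects, MIWI -/KI minus MIWI -/- less MIWI +/KI minus MIWI +/-, passed an adjusted p under 0.05 in limma in 0 of 19938 genes (0%) and in 1 of 35512 clusters (0.00282%). At an unadjusted p under 0.05 there were 2585 genes (13%). The count past the adjusted threshold varied when 1 array was left out, which leaves a genotype unreplicated. The split between MIWI +/KI and MIWI +/- coincided with that of the second component, so the 2 cannot be told apart there.

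The 5 genes named by smallest p on the positive side of this difference all stand among the 299 lower genes, as does the uncharacterised locus Gm136 (2.44, adjusted p = 0.0711), which the rule passed over although its p was the second smallest. The 5 were Tex55 (2.43, SE 0.25), Tex50 (2.01, SE 0.22), Acte1 (2.12, SE 0.23), Cstl1 (2.42, SE 0.27) and Ppp2r2b (1.78, SE 0.20), each with an adjusted p of 0.0711. Tex55 was at 211 and 249 in MIWI -/KI and 121 and 156 in MIWI -/-, and at 336 and 371 in MIWI +/KI and 1096 and 1191 in MIWI +/-. The knock-in arrays were thus the higher ones beside a null allele and the lower ones beside a wild-type allele. On the negative side were Lrrc61 (-2.23), Lypd11 (-2.20), Ube2o (-1.94), Tkfc (-1.19) and Fbrs (-2.94), with adjusted p between 0.0711 and 0.0721. Lypd11 was at 792 and 1015 in MIWI -/KI and 949 and 1050 in MIWI -/-, at 858 and 853 in MIWI +/KI and at 181 and 237 in MIWI +/-. Its 2 MIWI +/- arrays stood apart from the other 6.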

How the data were processed

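Per the submitters' processing notes the deposited values come from RMA. The version was not given in the sources used here. The authors deposited normalised intensities on a linear scale, 1 per transcript cluster and array, and log2 of each was taken. In 8 cells the value was over 100 times the median of its row in the other arrays, and these were treated as missing. Of 35512 clusters, 21789 had 1 gene symbol in the platform annotation, and a gene with several clusters (999 of 19938) was read on the one with the highest mean. No cluster was removed for low intensity, and precision is limited by having 2 arrays per genotype.

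limma 3.58.1 (R 4.3.3) fitted 1 mean per genotype over all 8 arrays, with an intensity trend in the moderated variances (4 residual degrees of freedom). Tests were two-sided, and p-values were adjusted by the Benjamini-Hochberg method over all clusters. SE is limma's moderated standard error, and folds are ratios of mean log2 levels. The analysis was tested on simulated data.

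The members and gene lists were chosen with earlier results of these data known. The rule for named genes asked for an adjusted p under 0.05 and arrays without overlap and, as too few genes passed, filled each direction to 12 with the smallest unadjusted p, passing over uncharacterised loci. It also took 6 genes at each end of the sets lower and higher without a wild-type allele, up to 4 per list by p, and 5 in each direction for the difference of effects. For the crossed pairing counts alone are given. Other list members, such as Prm1, Prm3, Crem and Tdrd1, are named for their role or to complete a count, with their values known. A table of assembly GRCm38.p6 gave neighbouring genes, and no coordinate is given. Same-numbered arrays of MIWI -/KI and MIWI -/- deviated with r = -0.26, so the replicate number did not pair them and was an alternative only. The alternatives were the fit, the scaling, the filter, the treatment of the 8 cells, the choice of cluster and leaving out each array.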

Additional observations from a re-analysis of the deposited data

Results flagged for a closer look

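Transcript cluster 10340088, listed with no gene in the platform annotation, was the 1 cluster of 35512 past an adjusted p under 0.05 for the difference of the knock-in effects. This is the effect beside a null allele less that beside a wild-type allele. The clusters next in order had an adjusted p of 0.0711 in limma. The split between MIWI +/KI and MIWI +/- coincided with that of the second principal component, so the 2 cannot be told apart here either. The log2 difference of the effects was -2.15 (SE 0.17, adjusted p = 0.0461 in limma, 2 arrays per genotype). The labels give no further identity for it, and a control probe set was not told apart from a transcript.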

How the results depend on the processing

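The count of genes past the threshold in MIWI -/KI against MIWI -/- stayed at 0 under 18 of 21 alternatives. It was 2 without the intensity trend, 3 with clusters above the median intensity alone, and 0 to 6 when 1 array was left out. With the replicate number as a block it was 0, with 883 genes at an unadjusted p under 0.05, and the block changed no gene's call named here. With the crossed pairing, as a term for the side of the second principal component, it was 0 with 1994. With the fit limited to the groups compared there were 211 at that p, and that fit gives no value for the sets or for the difference of effects. The log2 difference of Piwil1 was 1.99 without the trend (adjusted p = 0.0491) and 1.99 with clusters above the median intensity (0.0152), both past the threshold. It lay between 1.81 and 2.18 when 1 array was left out. The difference of the knock-in effects was called in 173 genes with clusters above the median intensity and in 0 to 241 when 1 array was left out. The median difference in genes higher without a wild-type allele lay between 0.064 and 0.45 when 1 array was left out, and in the lower genes between 0.038 and 0.19, with 0.10 to 0.12 under the other alternatives. For the 23 other genes named by smallest p, 479 of 482 values kept direction and side of the threshold, and 0 reversed. These genes were chosen for arrays without overlap, so leaving out 1 array could not reverse them. Most also lay far above the threshold, so this tally is no test of them. With 2 arrays per genotype, differences below the replicate spread were not detectable. Larger ones could also miss the threshold, as Piwil1 did in the main fit (log2 difference 1.99, adjusted p = 0.0816 in limma). A count of 0 genes therefore does not show that the genotypes were alike.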
